A study of Homo sapiens with 12 samples.

Results

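Among the genes counted in H1 human embryonic stem cells, 126 long intergenic noncoding RNA (LINC), small nucleolar RNA host (SNHG) and well known single noncoding RNA genes were expressed. They were chosen by name and selected on their measured level: 955 of the 27130 deposited gene rows carried a LINC or SNHG symbol or were CYTOR, GAS5, MALAT1, NEAT1 or ESRG, and 126 of these had a mean of at least 1 count per 1000000 counts of the library (CPM) in at least 1 group. Of the other name matches, 210 had no count in any library and 619 had counts but stayed under 1 CPM in every group. The 126 genes comprised 102 of 929 LINC symbols, 19 of 21 SNHG symbols and the 5 single genes. Poly(A) RNA had been profiled in 12 libraries of H1 (WA01) cells, an established pluripotent line, 3 libraries in each group: wild type, homozygous ZNF263 knockout, the knockout with ZIC2 overexpressed, and ZNF263 overexpressed. The names of the wild type and knockout libraries also hold the tag vec. Library names of both knockout groups share a further tag that the others lack, and its meaning is not stated in the sources used here. ZNF263 and ZIC2 are zinc finger transcription factors, and the stated purpose was to study how ZNF263, with ZIC2 as a cofactor, acts in the control of pluripotency. The sources used here do not state if the 3 libraries of each group were grown as separate cultures or how many clones make up the knockout. The p-values therefore reflect only the spread between these libraries, which may be technical.

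Long noncoding RNAs are transcripts with little or no translated sequence; some act in the nucleus on chromatin or on splicing, others bind proteins or small RNAs. SNHG genes and GAS5 are a special class: their introns carry small nucleolar RNAs (snoRNAs), which guide the chemical modification of ribosomal RNA, while the spliced exons left over are often removed by nonsense-mediated decay. Several host genes start at a C followed by a run of pyrimidines, the 5′ terminal oligopyrimidine (TOP) start that is typical of ribosomal protein genes. In embryonic stem cells ESRG, LINC-ROR, LINC00458 and LINC01108 are known as transcripts of the pluripotent state.

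The starts of 6 host genes are shown because part of this class is known for a pyrimidine start and its members moved in different directions. Each window holds 15 bases before the RefSeq start and 25 from it (GRCh38.p14, 5′ to 3′), and capitals mark a run of at least 5 pyrimidines that begins with C within 5 bases of the start. SNHG5, SNHG8 and SNHG16 were higher in knockout cells, SNHG4 and SNHG1 were lower, and SNHG12 was not called. With a correction for GC content and length SNHG12 was called lower (log2 fold change -0.19), and SNHG8 was not called. SNHG6, also higher in knockout, is not shown.
SNHG5 (chr6:85678709-85678748, - strand): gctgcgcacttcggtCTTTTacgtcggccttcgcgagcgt
SNHG8 (chr4:118278747-118278786, + strand): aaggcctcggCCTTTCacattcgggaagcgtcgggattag
SNHG16 (chr17:76557749-76557788, + strand): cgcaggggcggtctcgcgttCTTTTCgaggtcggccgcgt
SNHG4 (chr5:139274086-139274125, + strand): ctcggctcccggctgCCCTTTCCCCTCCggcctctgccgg
SNHG1 (chr11:62855861-62855900, - strand): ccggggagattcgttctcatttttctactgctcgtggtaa
SNHG12 (chr1:28581849-28581888, - strand): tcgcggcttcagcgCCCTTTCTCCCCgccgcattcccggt
A run of this kind was present in 9 of the 16 host genes with a promoter entry (56.2%), in 15 of the 78 other members with one (19.2%), and in 18.1% of all 35116 promoters. SNHG1 had no such run in this window, and SNHG5, SNHG8, SNHG16 and SNHG4 each had one.

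Promoter entries covering 250 bases before and 50 from the start were matched by symbol for 94 of the 126 genes. Both strands were searched for GGGAGGA, the core of the motif known for ZNF263, and for CCTGCTG, a core typical of ZIC factors. GGGAGGA was found in 16.0% of the members and 18.1% of all promoters, and CCTGCTG in 9.57% and 10.5%. The promoters of 4 genes with large differences are printed, with any GGGAGGA or CCTGCTG match in capitals. RefSeq lists LINC01336 as an older name of GCNT4, so the entry is that of GCNT4, and it lists LINC01021 as PURPL.
CYTOR (chr2:87455177-87455476, + strand): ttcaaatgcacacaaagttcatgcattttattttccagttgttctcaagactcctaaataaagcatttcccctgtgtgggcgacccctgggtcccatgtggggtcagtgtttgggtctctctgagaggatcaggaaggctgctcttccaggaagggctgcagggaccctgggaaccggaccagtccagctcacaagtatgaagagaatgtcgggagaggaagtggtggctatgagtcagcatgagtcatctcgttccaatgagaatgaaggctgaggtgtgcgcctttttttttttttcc
GCNT4 for LINC01336 (chr5:75052509-75052808, - strand): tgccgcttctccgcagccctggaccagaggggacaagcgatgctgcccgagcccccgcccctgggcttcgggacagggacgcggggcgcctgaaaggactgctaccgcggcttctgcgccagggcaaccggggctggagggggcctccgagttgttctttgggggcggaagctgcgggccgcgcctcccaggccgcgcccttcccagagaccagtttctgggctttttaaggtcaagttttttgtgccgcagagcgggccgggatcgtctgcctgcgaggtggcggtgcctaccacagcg
PURPL for LINC01021 (chr5:27472042-27472341, + strand): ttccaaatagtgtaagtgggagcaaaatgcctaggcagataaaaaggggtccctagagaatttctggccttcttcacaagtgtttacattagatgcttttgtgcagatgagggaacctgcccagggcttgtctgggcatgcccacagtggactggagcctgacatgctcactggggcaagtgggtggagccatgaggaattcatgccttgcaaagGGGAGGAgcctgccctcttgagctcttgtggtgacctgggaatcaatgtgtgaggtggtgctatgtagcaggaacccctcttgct
LINC00673 (chr17:72592755-72593054, - strand): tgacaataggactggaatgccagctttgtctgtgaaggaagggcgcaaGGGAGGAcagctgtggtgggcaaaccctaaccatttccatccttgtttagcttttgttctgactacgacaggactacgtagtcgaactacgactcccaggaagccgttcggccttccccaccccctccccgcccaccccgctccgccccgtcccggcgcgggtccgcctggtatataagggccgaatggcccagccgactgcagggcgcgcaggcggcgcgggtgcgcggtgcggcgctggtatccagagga
The CYTOR and GCNT4 promoters held neither core, and those of PURPL and LINC00673 each held 1 GGGAGGA core.

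The class was expressed at low levels. The median of the members in wild type was 2.93 CPM, and 37 members reached 10 CPM. Over the 15437 genes tested the median was 20.2 CPM, scaled by TMM, which corrects library totals for composition. The other levels in this paragraph, and the counts of members at 1 CPM or more, use library totals without that scaling. Levels of genes in later paragraphs were scaled by TMM. Together they took 0.272 to 0.29% of the counts of a library, and 29.8% of that came from ESRG. All 126 passed the low-count filter. The level of 1 CPM was reached in all 4 groups by 104 of them, and the other 22 fell under it in at least 1 group. For a gene that passed only through a group where it is high, a difference is in part a matter of selection. The values of such genes are given below as a description, without a p-value. Counts of called members, and of settings in which a call held, include them. Just above the threshold LINC00312 had 1.03 CPM, LINC00242 1.03 CPM and LINC00574 1.06 CPM in their highest group. Just below it LINC00472 had 0.985 CPM, LINC00890 0.950 CPM and LINC00963 0.947 CPM.

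RefSeq now lists 115 of the 126 as noncoding and 11 as protein coding. Among the latter are LINC00371 (C13orf42), LINC00998 (SMIM30, a small membrane protein), LINC00116 (MTLN, mitoregulin), LINC00493 (SMIM26) and LINC01420 (NBDY). Exon bases were shared with another gene that is no small RNA in 21 members, with a gene on the opposite strand in 16 and on the same strand in 6. With this non-strand kit, reads of overlapping genes cannot be told apart.

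Per length, SNHG5 had the highest wild type level with 303.5 ± 23.2 RPKM (CPM per 1000 bases of exon, SD, n = 3). ESRG followed with 260.0 ± 3.33 RPKM (SD, n = 3), GAS5 with 172 ± 6.03, SNHG1 with 133 ± 3.87, SNHG6 with 119 ± 5.75 and LINC00678 with 116 ± 1.86 RPKM (SD, n = 3). The intervals of 1 SD of SNHG6 and LINC00678 overlapped, and those of the other neighbours in this order did not. MALAT1, a nuclear speckle RNA, stood at 19.1 ± 2.2 RPKM (SD, n = 3), and NEAT1, the scaffold of paraspeckles, at 0.368 ± 0.0284 RPKM (SD, n = 3). Both RNAs have forms that end without a poly(A) tail, which the poly(A) selection would miss.

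Libraries held 17175183 to 21804410 counts, apart from knockout replicate 1 with 43464609. ZNF263 counts checked the overexpression, with 239.6 ± 18.0 CPM (SD, n = 3) against 39.2 ± 1.35 in wild type, but were still 31.1 ± 0.128 CPM (SD, n = 3) in knockout libraries; gene counts do not show whether that transcript can encode the protein. ZIC2 reached 2040 ± 175 CPM (SD, n = 3) in the knockout with ZIC2, from 156 ± 3.81 in knockout alone. In wild type it was at 208.5 ± 3.74 CPM (SD, n = 3). The knockout alone thus stood below wild type (log2 fold change -0.42, SE 0.05), and the knockout with ZIC2 was 9.79-fold above it. The summed level of 8 pluripotency markers was 6650 to 6740 CPM in wild type, 7290 to 7310 in knockout, 6850 to 6920 with ZIC2 and 6910 to 7010 with ZNF263 overexpressed. Each of 5 other cell types had 4 markers, none at 0 in all libraries, and SOX1, NEUROG2, SOX17, GATA6, T, MESP1, CGA and CGB5 stayed under 1 CPM. The endoderm markers summed to 5.87 to 6.70 CPM in wild type, 8.07 to 9.70 in knockout, 8.90 to 9.66 with ZIC2 and 3.66 to 5.02 with ZNF263 overexpressed. Mesoderm markers summed to 1.79 to 2.14 CPM in wild type, 2.84 to 3.16 in knockout, 2.58 to 3.81 with ZIC2 and 1.39 to 2.95 with ZNF263 overexpressed. Trophoblast markers summed to 5.10 to 5.39, 5.45 to 6.90, 7.03 to 8.46 and 7.26 to 7.76 CPM in the same order, and neuroectoderm markers to 6.4 to 8.48 CPM over all libraries. The sum of 4 fibroblast genes (COL1A1, COL1A2, THY1 and POSTN) was 484 to 500 CPM in wild type, 532 to 576 in knockout, 610 to 661 with ZIC2 and 489 to 501 with ZNF263 overexpressed. The sums of the endoderm, mesoderm, trophoblast and fibroblast markers were thus above wild type in both knockout groups. The trophoblast sum was above wild type with ZNF263 overexpressed as well. The part of these sums in the results was not tested. In such bulk RNA, fewer cells of a type and less RNA per cell cannot be told apart.

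In knockout against wild type cells, the noncoding RNA CYTOR, LINC00371 and LINC01336 rose most among members of more than 1 CPM in wild type, the host genes SNHG5 and SNHG6 rose modestly, and LINC00672, LINC00998, LINC00641 and SNHG4 fell. A total of 20 members were higher and 14 lower at an adjusted p under 0.05 (edgeR quasi-likelihood test with Benjamini-Hochberg adjustment over all tested genes, as throughout). That is 15.9 and 11.1% of the members, beside 20.0% (higher) and 18.5% (lower) of all genes tested. These counts include the 11 members that RefSeq now lists as protein coding, of which 5 were higher and 3 lower (45.5 and 27.3%). Among the 107 members at 1 CPM or more in both groups, 15 were higher and 12 lower. The median log2 fold change was 0.03 over the members and -0.01 over all tested genes. Over all tested genes the fold change in knockout moved with GC content (Spearman 0.432 across genes, which are not independent replicates). Over the members with known GC content the value was 0.191. With a correction for GC content and length 15 members were higher and 19 lower, and the larger count changed direction. That is 11.9 and 15.1% of the members, beside 15.2% (higher) and 13.4% (lower) of all genes tested under this correction. Each call was tried under 13 alternative settings, and 16 of the 34 calls held under every one of them.

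**Figure D1:**
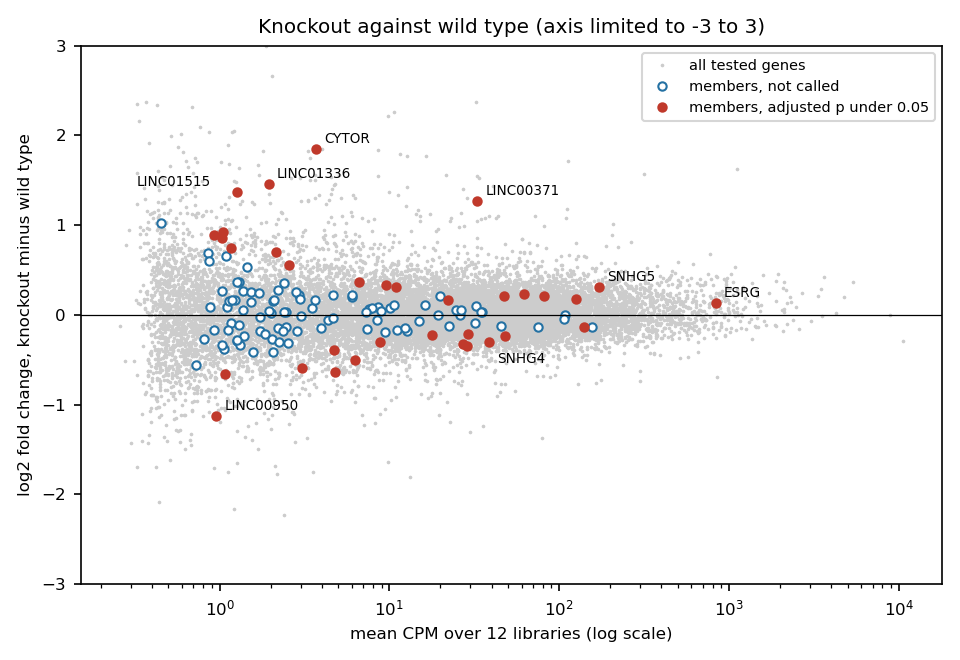
Each point is a tested gene, with the mean CPM over 12 libraries (log scale) on the horizontal axis and the log2 fold change of knockout over wild type on the vertical axis; 15 genes lie outside the plotted range. Filled red points are the 34 members called at an adjusted p under 0.05 and open blue points the 92 others, and CYTOR is the highest member at 1.85.

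CYTOR (chromosome 2, 87754974 to 87821030, hg19), a cytoplasmic noncoding RNA named as a cytoskeleton regulator, had 1.85, 1.55 and 1.67 CPM in the wild type libraries and 5.50, 6.80 and 6.30 CPM in knockout. It stayed at 5.83, 5.52 and 5.74 CPM with ZIC2 and was 0.982, 0.998 and 1.41 CPM with ZNF263 overexpressed. All 6 knockout libraries stood above all others, and the 3 overexpression libraries stood below the wild type ones. The difference of knockout from wild type was a 3.60-fold rise (log2 fold change 1.85, SE 0.15, adjusted p = 2.48e-09), and that of overexpression missed the threshold (log2 fold change -0.55, SE 0.22, adjusted p = 0.336). CYTOR has a near-identical copy, MIR4435-2HG, with which reads can be confused or lost. The copy moved alike: its values were 3.06, 2.29 and 2.86 CPM in wild type and 6.48, 6.74 and 6.86 CPM in knockout (log2 fold change 1.28, SE 0.14, adjusted p = 1.44e-07). With ZNF263 overexpressed the copy was at 1.80, 1.497 and 1.27 CPM, below wild type (adjusted p = 0.0294, log2 fold change -0.86, SE 0.19). MIR4435-2HG is no member and was chosen after its values were seen, and how reads divided between the copies was not tested.

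LINC00371 (chromosome 13, 51656984 to 51746524, minus strand), which RefSeq lists as the coding gene C13orf42, was at 18.4, 22.3 and 22.2 CPM in wild type and at 61.5, 40.6 and 46.9 CPM in knockout. The libraries with ZIC2 held 40.7, 39.4 and 44.2 CPM, and those with ZNF263 overexpressed 19.1, 18.9 and 19.6 CPM. The groups of knockout and wild type did not overlap, although knockout replicate 1, the deepest library, was well above the other 2. The rise was 2.41-fold (log2 fold change 1.27, SE 0.11, adjusted p = 4.5e-09). Its neighbour FAM124A went the other way, from 202 ± 6.82 to 138 CPM in knockout (log2 fold change -0.55, SE 0.05, adjusted p = 3e-09).

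LINC01336 (chromosome 5, 74343544 to 74348468, minus strand) had 1.27, 0.960 and 1.29 CPM in wild type, 3.22, 3.06 and 3.40 in knockout, 2.84, 2.43 and 2.58 with ZIC2, and 0.764, 0.832 and 0.681 with ZNF263 overexpressed. The levels lay in 4 bands that did not overlap, with ZNF263 overexpression lowest and knockout highest. The knockout difference was 2.74-fold (log2 fold change 1.45, SE 0.18, adjusted p = 1.07e-06), and the overexpression difference missed the threshold (log2 fold change -0.64, SE 0.25, adjusted p = 0.349). GCNT4, a glycosyltransferase gene counted 16820 bases away on the same strand, had 12.3, 14.1 and 15.3 CPM in wild type, 26.3, 27.4 and 28.3 in knockout, and 9.93, 8.26 and 10.8 with ZNF263 overexpressed. It rose in knockout (log2 fold change 0.96, SE 0.08, adjusted p = 3.48e-09) and fell with ZNF263 overexpression (log2 fold change -0.52, SE 0.10, adjusted p = 0.00643). Since RefSeq lists LINC01336 under GCNT4, both rows may count 1 gene.

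Several RNAs of low level were higher in knockout but stood under 1 CPM in wild type, and are given as a description. LINC01515 had 0.636, 0.800 and 0.524 CPM in wild type and 1.68, 2.06 and 1.35 in knockout. The ratio of its pooled counts, scaled by library size and without a measure of the spread between libraries, was 2.59. LINC-ROR, a transcript of reprogrammed and embryonic stem cells, had 0.924, 0.747 and 0.524 CPM in wild type and 1.61, 1.37 and 0.979 in knockout (pooled ratio 1.94). It was also high with ZNF263 overexpressed, at 1.31, 1.39 and 1.09 CPM, so the knockout and the overexpression libraries both lay above wild type. LINC01021, known as PURPL and induced by p53, rose from 0.636, 0.800 and 0.572 CPM to 1.26, 1.05 and 1.26 CPM (pooled ratio 1.82). In the other direction LINC00950 went from 0.924, 1.55 and 1.48 CPM to 0.769, 0.474 and 0.420 CPM (pooled ratio 0.459). RefSeq lists LINC00950 as an older name of TMEM8B, and the separate TMEM8B row went up, from 8.09 ± 0.296 to 10.3 CPM (log2 fold change 0.34, SE 0.09, adjusted p = 0.00334).

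The falls that follow, and LINC00665, were chosen after their values were seen. LINC00672 (LASP1NB in RefSeq, chromosome 17, 37081421 to 37085637) was at 5.37, 5.23 and 5.14 CPM in wild type, 3.36, 3.53 and 3.22 in knockout, and 7.75, 7.71 and 6.54 with ZNF263 overexpressed. The 3 groups did not overlap, with the knockout lowest and the overexpression highest. The fall in knockout was called (log2 fold change -0.64, SE 0.15, adjusted p = 0.00151). The higher level with overexpression was not (log2 fold change 0.48, SE 0.14, adjusted p = 0.121), although it was with the correction for GC content and length (adjusted p = 0.0388). LASP1, an actin-binding protein gene 3398 bases away on the same strand, rose in knockout from 376.5 ± 5.02 to 488 CPM (log2 fold change 0.37, SE 0.03, adjusted p = 1.25e-08).

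LINC00998, the gene of the small protein SMIM30, was at 33.4, 33.1 and 29.2 CPM in wild type and 24.0, 26.5 and 24.95 CPM in knockout (log2 fold change -0.35, SE 0.07, adjusted p = 0.000281). LINC00641 was at 33.8, 30.5 and 27.8 CPM in wild type and 25.6, 23.5 and 24.0 CPM in knockout (log2 fold change -0.32, SE 0.07, adjusted p = 0.000576), and its fall shrank to -0.17 with the GC correction. In both genes the knockout libraries lay below all wild type libraries. LINC01578, also called CHASERR, restrains the chromatin remodeller gene CHD2 beside it. It was at 55.2, 45.6 and 49.5 CPM in wild type and 41.7, 42.8 and 42.9 CPM in knockout (log2 fold change -0.24, SE 0.06, adjusted p = 0.00248). CHD2, 1574 bases downstream, fell by the same size (log2 fold change -0.24, SE 0.05, adjusted p = 0.000817). LINC00665 rose from 75.9, 77.7 and 73.1 CPM to 85.2, 91.8 and 86.0 CPM without overlap (log2 fold change 0.21, SE 0.04, adjusted p = 0.000449).

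**Figure D2:**
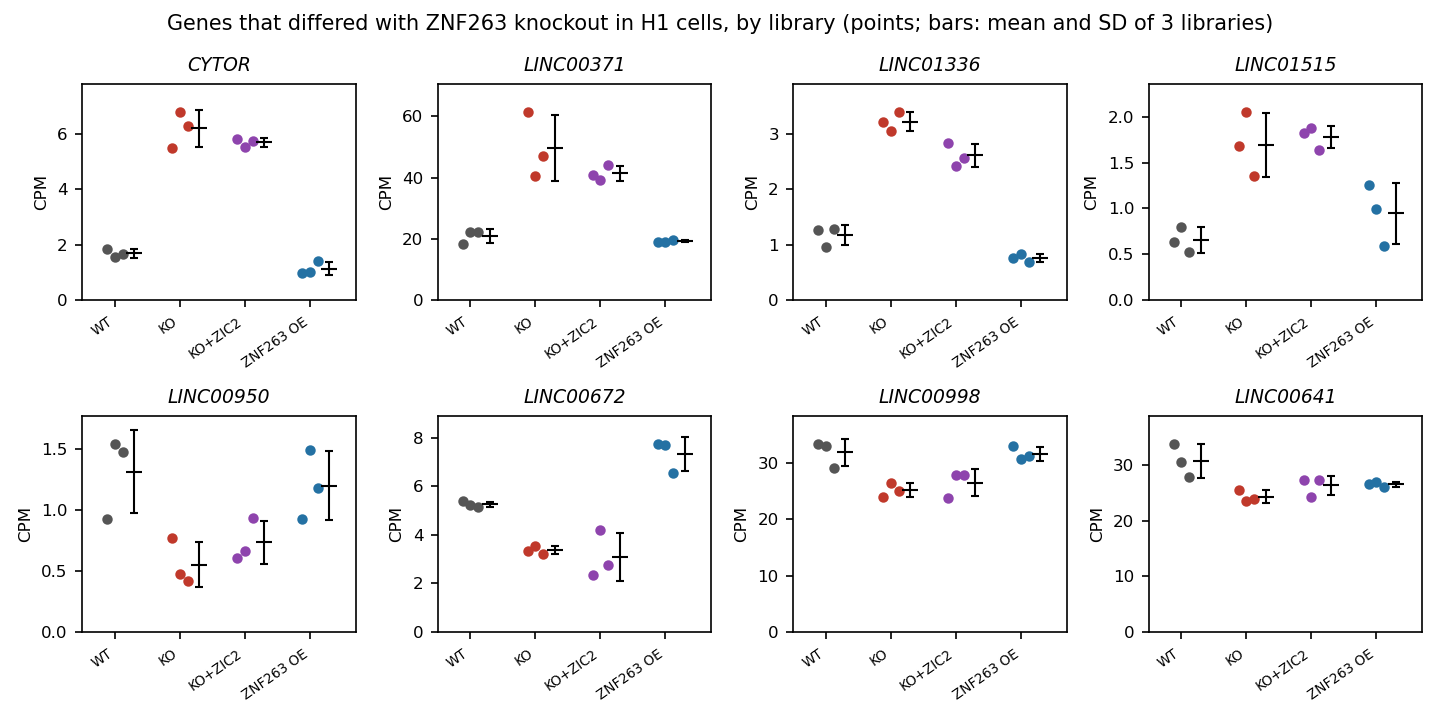
CPM of 8 members in each of 12 libraries (points), with the mean and SD of 3 libraries beside them. In CYTOR, LINC00371, LINC01336 and LINC01515 both knockout groups stand above wild type, and in LINC00950, LINC00672, LINC00998 and LINC00641 the knockout stands below it.

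Other calls in knockout included LINC00959 (log2 fold change 0.56), LINC01234 (-0.59) and LINC00997 (-0.51), chosen after their values were seen. Each of these held in all 13 settings. LINC00999 was higher by 0.70 (log2, SE 0.19, adjusted p = 0.00507) but lost its call without wild type replicate 3 (adjusted p = 0.0558). Its nearest neighbour, the pseudogene HSD17B7P2, had 1 pooled count in wild type and 4 with ZNF263 overexpressed, and 2.66, 3.64 and 2.80 CPM in knockout; it lies 49641 bases away and was chosen after its values were seen. Among the 29 called members with a tested neighbour within 100000 bases, 19 of 45 neighbours were called, 6 in the member's direction and 13 in the other, beside 20.0% (higher) and 18.5% (lower) of all genes tested. The 92 members that were not called include MALAT1, at 167 ± 19.2 CPM in wild type and 152 ± 10.2 CPM in knockout (SD, n = 3), which missed the threshold at an adjusted p of 0.153 (-0.14 on the log2 scale, SE 0.07). NEAT1 had 8.37 ± 0.646 and 8.60 ± 1.18 CPM (SD, n = 3), a log2 difference of 0.08 (adjusted p = 0.582). LINC00458 had 2.28 ± 0.126 and 1.79 ± 0.552 CPM (SD, n = 3), a log2 difference of -0.42 (adjusted p = 0.117).

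ESRG (chromosome 3, 54666151 to 54673884, minus strand), a transcript driven by an endogenous retroviral repeat in pluripotent cells, had 804, 823 and 821 CPM in wild type and 949, 864 and 869 in knockout. With ZIC2 it was at 789, 798 and 822 CPM, and with ZNF263 overexpressed at 805, 822 and 832 CPM. The knockout libraries lay above all other libraries, and the other 3 groups overlapped. The rise in knockout was 1.10-fold (log2 fold change 0.13, SE 0.04, adjusted p = 0.00534). Without knockout replicate 1 it was 0.08 and no longer called (adjusted p = 0.0603). The summed pluripotency markers were likewise highest in the knockout libraries, and their part in this difference was not tested.

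Of the 20 snoRNA host genes, SNHG5, SNHG6, SNHG8, SNHG16 and SNHG25 were called higher and SNHG1 and SNHG4 lower in knockout, and 13 were not called. That is 25% higher and 10.0% lower, beside 20.0% and 18.5% of all genes tested. The higher hosts include SNHG25, which stood under 1 CPM in wild type and was selected through its higher groups. The 25% is thus in part a matter of selection. SNHG5, the most abundant host, had 167, 145 and 149 CPM in wild type and 176, 206 and 191 CPM in knockout (log2 fold change 0.31, SE 0.05, adjusted p = 9.75e-05). The groups did not overlap, but the rise was 0.19 with the correction for GC content and length. SNHG6 had 58.5, 56.5 and 53.2 CPM in wild type and 62.7, 68.7 and 67.2 CPM in knockout, again without overlap (log2 fold change 0.24, SE 0.05, adjusted p = 0.00101). It shares 25.2% of its exon bases with MCMDC2 on the opposite strand, a gene with few counts.

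SNHG4 had 42.5, 45.3 and 39.5 CPM in wild type and 34.2, 34.8 and 33.8 CPM in knockout, a fall without overlap (log2 fold change -0.31, SE 0.06, adjusted p = 0.000264). It shares 38.9% of its exon bases with MATR3, a nuclear matrix protein gene on the same strand, and MATR3 fell as well (log2 fold change -0.25, SE 0.03, adjusted p = 1.07e-06). Which of the 2 genes the shared reads came from was not tested. SNHG1 had 154, 148 and 146 CPM in wild type and 130, 137 and 141 CPM in knockout (log2 fold change -0.13, SE 0.04, adjusted p = 0.0148), and lost its call without wild type replicate 1 (adjusted p = 0.0612) or knockout replicate 1 (adjusted p = 0.0743).

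SNHG8 and SNHG16 were called higher, but their libraries overlapped those of wild type. SNHG8 had 48.1, 41.6 and 41.8 CPM in wild type and 45.9, 56.1 and 51.6 in knockout (log2 fold change 0.21, SE 0.06, adjusted p = 0.0102). Its call was lost with the correction for GC content and length (0.09, adjusted p = 0.124) and without wild type replicate 2 (adjusted p = 0.0741) or 3 (adjusted p = 0.0744). SNHG16 had 134, 123 and 114 CPM in wild type and 138, 146 and 133 CPM in knockout (log2 fold change 0.17, SE 0.05, adjusted p = 0.00956). Without wild type replicate 3 the value was 0.11 (adjusted p = 0.12). SNHG25, at 0.592 ± 0.149 CPM in wild type and 1.154 ± 0.199 CPM in knockout (SD, n = 3), had a pooled ratio of 1.83 and was selected through its higher groups. Its call was lost in 5 of 13 settings, among them the correction for GC content and length and the fits without wild type replicate 2 or knockout replicate 2 or 3.

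GAS5, the host of many box C/D snoRNAs and a growth arrest transcript, had 113, 105 and 108 CPM in wild type and 99.4, 113 and 105 CPM in knockout. The groups overlapped and the difference was not called (log2 fold change -0.05, SE 0.04, adjusted p = 0.449), but it was with the correction for GC content and length (-0.13, SE 0.03, adjusted p = 0.00187). With that correction the hosts counted 3 higher and 4 lower, or 15.0 and 20.0%, beside 15.2% (higher) and 13.4% (lower) of all genes tested. Of 48 snoRNA genes inside the hosts, 31 passed the low-count filter. Without the correction 1 of these was higher (SNORA71C, in SNHG17) and 2 were lower (SNORD31 and SNORD27, both in SNHG1), beside 20.0% (higher) and 18.5% (lower) of all genes tested. Mature snoRNAs carry no poly(A) tail, so these counts do not measure them.

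**Figure D3:**
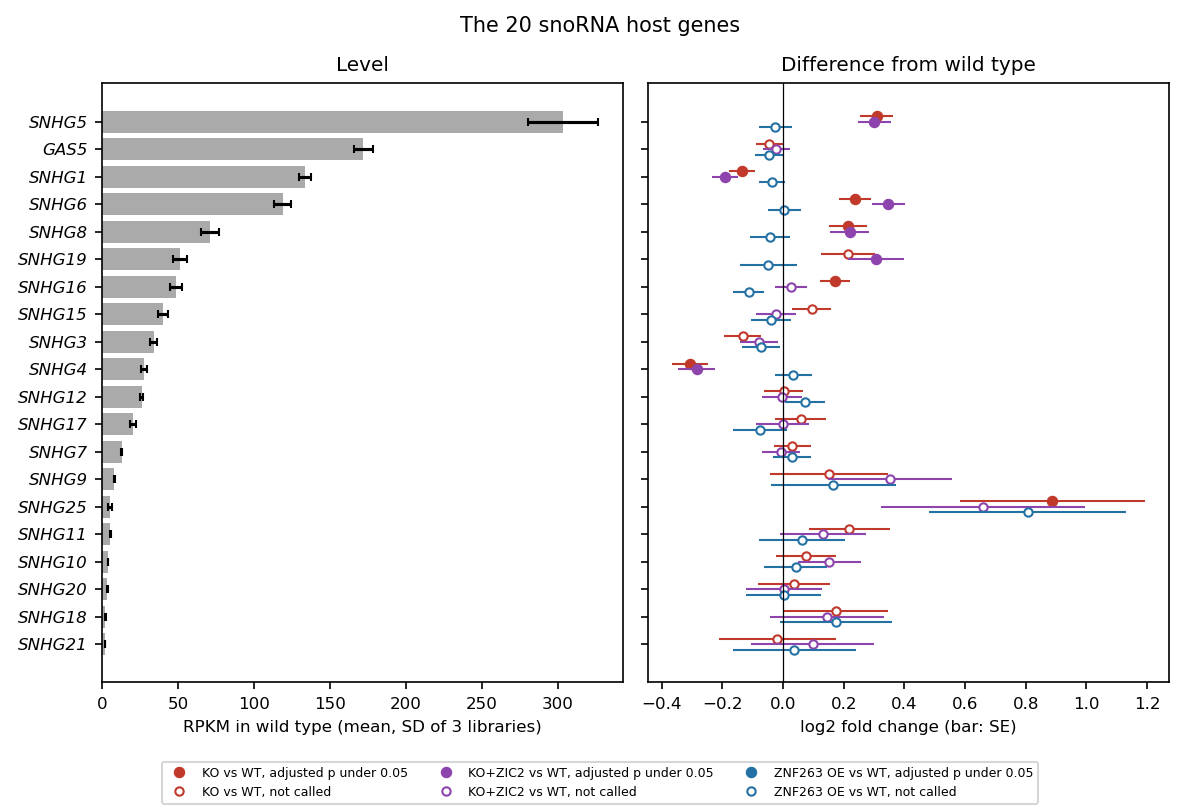
Left, RPKM of the 20 host genes in wild type (bars, mean; error bars, SD of 3 libraries); right, log2 fold change from wild type (error bars, SE) in 3 groups, filled where the adjusted p is under 0.05. SNHG5, SNHG6 and SNHG8 lie right of 0 and SNHG1 and SNHG4 left of 0 in both knockout groups, and no overexpression point is filled.

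Gene lists around these RNAs were counted in the same fit, in which 20.0% of all genes tested were higher and 18.5% lower in knockout; the counts are a description of lists of 8 to 18 genes. Of the 8 core proteins of snoRNA particles, 4 were higher in knockout and 0 lower, among them NHP2 (log2 fold change 0.28, SE 0.05) and the methyltransferase FBL (0.17, SE 0.04). Of 11 genes listed as assembly factors 2 were higher, among them the ATPase RUVBL2 (0.29, SE 0.05), and 3 lower. The lower ones include TAF1D, a host gene rather than an assembly factor, which is counted again among the other hosts below. Of 15 TOP genes other than those of ribosomal proteins, 6 were higher, led by EEF1D (0.33, SE 0.04), and NAP1L1 was lower (-0.15, SE 0.03). Of 16 other tested snoRNA hosts 7 were higher, such as EEF2 (0.21, SE 0.03), and 4 lower, such as TAF1D (-0.27, SE 0.05).

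Of 18 nonsense-mediated decay factors, 5 were higher, such as the helicase gene DHX34 (0.27, SE 0.05), and 4 lower, such as UPF3B (-0.23, SE 0.05) and UPF2 (-0.18, SE 0.04). Paraspeckle proteins had 2 of 10 higher and 2 lower, and nuclear speckle proteins 0 of 8 higher and 2 lower, with PNISR at -0.37 (SE 0.04). Of 16 other tested long noncoding RNAs, 0 were higher and 3 lower: MIR17HG, the host of the miR-17 cluster (-0.40, SE 0.06), TUG1 (-0.27, SE 0.05) and NORAD (-0.16, SE 0.03). The medians of these lists lay between -0.08 and 0.07, beside -0.01 over all tested genes.

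With ZNF263 overexpressed, 0 of the 126 members were called in either direction by edgeR and 0 by DESeq2, beside 0.317% (higher) and 0.447% (lower) of all genes tested. At an unadjusted p under 0.05 there were 15 members, or 11.9%, against 10.6% of all tested genes. The members with the smallest p were LINC00672, given above, and LINC00641, at 26.6, 27.0 and 26.1 CPM, below the 3 wild type libraries (log2 fold change -0.21, SE 0.07, adjusted p = 0.224). MALAT1 was at 145 ± 7.76 CPM (SD, n = 3), a log2 difference of -0.20 (adjusted p = 0.281). NEAT1 was at 6.74 ± 0.774 CPM (SD, n = 3), a log2 difference of -0.32 (adjusted p = 0.287), and its 3 libraries lay below those of wild type. All hosts at 10 CPM or more stayed within 0.12 of wild type on the log2 scale, with SNHG16 the farthest at -0.11.

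Adding ZIC2 to knockout cells went with higher LINC00639, LINC00673 and LINC00052 and lower LINC01108, LINC00678 and ESRG. A total of 5 members were called higher and 4 lower than in knockout, or 3.97 and 3.17% of the members beside 4.99% (higher) and 3.35% (lower) of all genes tested. LINC00639, LINC00673 and LINC00052 stood under 1 CPM in knockout, so their values are a description. Among the 110 members at 1 CPM or more in both groups, 2 were higher and 4 lower.

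LINC00639 (chromosome 14, 39218543 to 39386086, minus strand) had 0.280, 0.158 and 0.373 CPM in knockout and 2.89, 1.66 and 2.58 CPM with ZIC2. It was at 0.231, 0.373 and 0.381 CPM in wild type and 0.273, 0.222 and 0.272 CPM with ZNF263 overexpressed, so the 3 libraries with ZIC2 stood apart from the other 9. The pooled counts were 131 with ZIC2 and 23 in knockout, a ratio of 8.64 after scaling by library size. LINC00673 (chromosome 17, 70399463 to 70588945, minus strand) had 0.722, 0.896 and 0.793 CPM in knockout and 2.99, 2.37 and 1.70 CPM with ZIC2, against 0.809, 0.853 and 1.19 CPM in wild type (pooled ratio of ZIC2 to wild type 2.47). Its neighbour SLC39A11, a zinc transporter gene, was not called (log2 fold change -0.06, SE 0.09, adjusted p = 0.776).

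LINC00052 (chromosome 15, 88120160 to 88122917) had 0.173, 0.213 and 0.143 CPM in wild type, 0.303, 0.422 and 0.420 in knockout, and 1.22, 0.883 and 1.23 with ZIC2. Its mean was lowest with ZNF263 overexpressed, at 0.164, 0.111 and 0.136 CPM. The knockout libraries lay between wild type and ZIC2 without overlap, and the pooled ratio of ZIC2 to knockout was 3.08.

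Of the falls, LINC01108 went from 2.56, 3.00 and 2.01 CPM in knockout to 1.42, 1.44 and 1.52 CPM with ZIC2 (log2 fold change -0.79, SE 0.20, adjusted p = 0.0128). The groups did not overlap, and the call was lost without the ZIC2 replicate 1 (adjusted p = 0.0624). LINC00678, chosen after its values were seen, had 113, 111 and 108 CPM in knockout and 94.9, 101 and 101 CPM with ZIC2 (log2 fold change -0.16, SE 0.04, adjusted p = 0.0084), and lost its call without ZIC2 replicate 1 (adjusted p = 0.0669) or with only the libraries of the 2 groups (adjusted p = 0.0661). ESRG fell from knockout by 0.16 on the log2 scale (SE 0.04, adjusted p = 0.00611), which was not called when only the libraries of the 2 groups were fitted (adjusted p = 0.0671). LINC00545, at 2.86 ± 0.444 CPM in knockout and 1.88 ± 0.395 CPM with ZIC2 (SD, n = 3), differed by -0.62 on the log2 scale (adjusted p = 0.0414) and shares 60.5% of its exon bases with TEX26-AS1. It lost its call in 8 of 13 settings, among them the fits without knockout replicate 1 (adjusted p = 0.0793) or 3 (0.14) and without ZIC2 replicate 1 (0.256), 2 (0.054) or 3 (0.051).

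**Figure D4:**
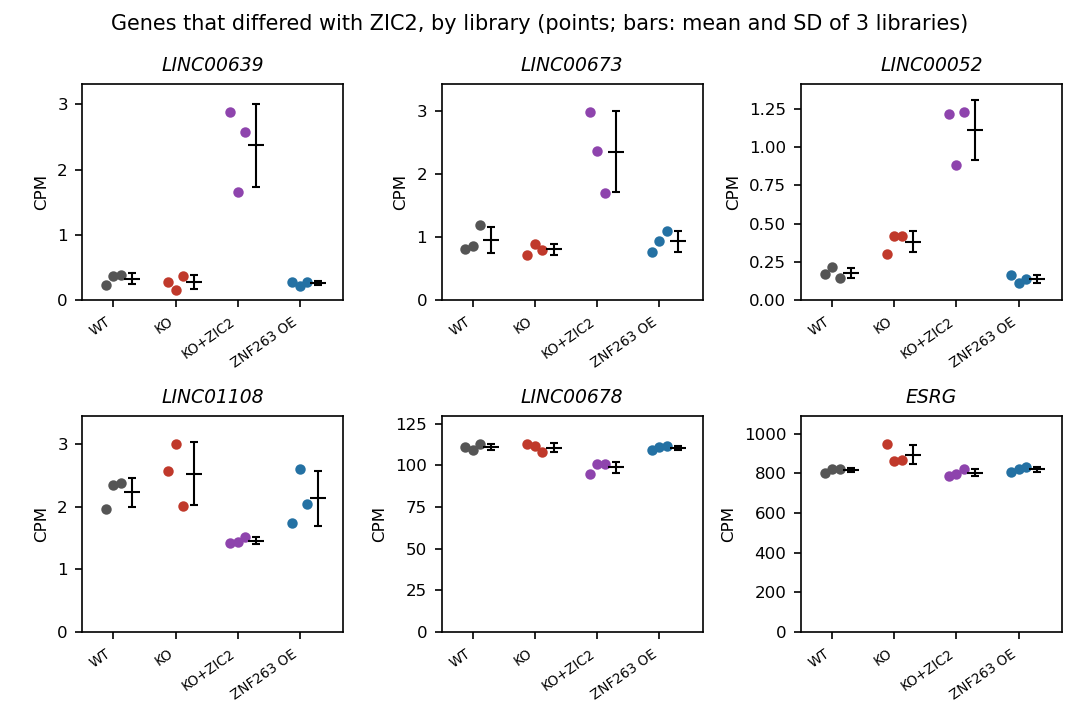
CPM of 6 members in each of 12 libraries (points), with the mean and SD of 3 libraries beside them. The libraries with ZIC2 stand above the other 9 in LINC00639, LINC00673 and LINC00052 and below the other 9 in LINC01108 and LINC00678, while ESRG is highest in knockout.

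A set of 3 members differed one way in knockout and the other way with ZIC2. Both comparisons share the knockout libraries, so the values are only set side by side. The share of all genes tested that did so is not given here, so this count is no result about the members. ESRG had log2 fold changes of 0.13 (knockout against wild type) and -0.16 (ZIC2 against knockout). LINC01578 had -0.24 and 0.19, and the latter lost its call in 8 of 13 settings, among them the fits without knockout replicate 1 (adjusted p = 0.125) or 3 (0.088) and without ZIC2 replicate 1 (0.151) or 2 (0.173). LINC01315 had 8.55, 7.73 and 9.34 CPM in wild type, 6.17, 7.96 and 7.18 in knockout and 8.06, 8.78 and 11.2 with ZIC2. Its fold changes were -0.30 (SE 0.12, adjusted p = 0.0461) and 0.43 (SE 0.12, adjusted p = 0.024), lost in 7 and 3 of 13 settings. The former call was lost without wild type replicate 1 (adjusted p = 0.0751) or 3 (0.204) and without knockout replicate 1 (0.274) or 3 (0.0629), and the latter without knockout replicate 1 (0.173) or ZIC2 replicate 3 (0.202). Its neighbour NFAM1 had 0.373, 0.105 and 0.0933 CPM in knockout and rose with ZIC2 (log2 fold change 1.95, SE 0.41, adjusted p = 0.00268).

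No host gene was called for ZIC2 against knockout: 0 of 20 were higher and 0 lower by edgeR and by DESeq2. By edgeR 4.99% (higher) and 3.35% (lower) of all genes tested were called, and 2 hosts had an unadjusted p under 0.05. With the correction for GC content and length 1 host was higher and 1 lower, beside 6.27% (higher) and 6.67% (lower) of all genes tested. SNHG16 was lower by 0.15 (SE 0.05, adjusted p = 0.0832) and SNHG6 higher by 0.11 (SE 0.05, adjusted p = 0.224), both without overlap of libraries. CYTOR differed by -0.09 (SE 0.12, adjusted p = 0.766), LINC00371 by -0.29 (SE 0.10, adjusted p = 0.0691) and SNHG5 by -0.01 (SE 0.05, adjusted p = 0.961). Among other long noncoding RNAs, the imprinted H19 was higher with ZIC2 (log2 fold change 0.82, SE 0.25, adjusted p = 0.039) and SOX2-OT lower (-0.44, SE 0.14, adjusted p = 0.0497). MIR17HG, at -0.40 in knockout against wild type, was at 0.19 with ZIC2 against knockout (SE 0.06, adjusted p = 0.0406), and these comparisons share the knockout libraries.

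Against wild type, knockout cells with ZIC2 had 20 members higher and 12 lower, or 15.9 and 9.52%, beside 20.3% (higher) and 17.3% (lower) of all genes tested. Among the 107 members at 1 CPM or more in both groups, 14 were higher and 10 lower. This comparison shares the wild type libraries with that of the knockout alone. CYTOR was 3.38-fold higher (log2 fold change 1.76, SE 0.16, adjusted p = 1.6e-08), LINC00371 1.96-fold (adjusted p = 6.08e-07) and LINC01336 2.23-fold (adjusted p = 6.5e-05). LINC00672 was lower, at -0.77 on the log2 scale (adjusted p = 0.000726), SNHG4 by -0.29 (adjusted p = 0.000848) and SNHG1 by -0.19 (adjusted p = 0.00131). SNHG5 was higher by 0.30 (adjusted p = 0.000154), SNHG6 by 0.35 (adjusted p = 2.3e-05), and SNHG19 by 0.31 (adjusted p = 0.0106), but with the correction for GC content and length SNHG19 was at 0.04 (adjusted p = 0.742). NEAT1, at 11.04, 10.54 and 10.54 CPM against 8.78, 8.69 and 7.62 in wild type, was higher without overlap (log2 fold change 0.36, SE 0.11, adjusted p = 0.0115), and lost its call without wild type replicate 3 (adjusted p = 0.0782).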

How the data were processed

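RNA-seq of 12 libraries was deposited by the authors as raw counts per gene, whole numbers without normalization; per the file headers they came from uniquely aligned reads. STAR, featureCounts, DESeq2 and hg19 are named in the submitters' processing notes, with versions and settings not given in the sources used here. Reads that fit near-identical genes equally well are then not counted.

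Groups came from the labels. Tests were quasi-likelihood fits in edgeR 4.0.16 (R 4.3.3) over all 12 libraries, without covariates beside the group (8 residual degrees of freedom), after filterByExpr (15437 of 27130 genes) and TMM scaling (factors 0.981 to 1.015), with Benjamini-Hochberg adjustment over all tested genes and a call at an adjusted p under 0.05. The fit was tested on simulated data. RPKM used the deposited exon lengths. Ratios of pooled counts sum the libraries of a group and are scaled by library size, so deeper libraries weigh more. They carry no measure of the spread between libraries and are no test.

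Alternatives were DESeq2 1.42.0 (test and size factors), no low-count filter, only the groups compared, the replicate number as a block, a GC content and length correction (mgcv 1.9.3), each library left out, and another level threshold. GC content came from GENCODE v29 transcripts matched by symbol for 97% of the tested genes.

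The rule for names took the 5 single genes, all SNHG members, the 5 highest by RPKM, the 6 LINC members with the largest called change per comparison and their neighbours within 100000 bases, members called in opposite directions, and up to 3 genes per list. LINC00641, LINC00672, LINC00678, LINC00458, LINC00665, LINC00959, LINC00997, LINC00998, LINC00999, LINC01234, MATR3, NAP1L1, MIR4435-2HG, LASP1, CHD2 and HSD17B7P2 fall outside it and were chosen after their values were seen. The members and gene lists were chosen with earlier results of these data known. Sequences are from RefSeq tables of GRCh38.p14, matched by symbol, and coordinates of members are those of the deposited hg19 table.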

Additional observations from a re-analysis of the deposited data

How the results depend on the processing

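No call of a named member reversed in any alternative, and 24 of 42 called values held in all of them. Leaving out single libraries gave 12 to 21 members higher and 11 to 16 lower in knockout, and the lowest count of 12 came without wild type replicate 3. With ZIC2 against knockout the ranges were 4 to 7 and 1 to 5, the lowest without ZIC2 replicate 1; against wild type they were 14 to 19 and 8 to 14. With ZNF263 overexpressed, 1 member was higher and 1 lower without the low-count filter, and 1 and 1 with only the libraries compared (124 members tested). With the GC content and length correction 1 was higher, with or without the replicate block. Without the block, that correction called 0.836% (higher) and 0.881% (lower) of all genes tested. For ZIC2 against knockout, 3 were higher and 1 lower with only the libraries compared. With the GC correction 9 were higher and 6 lower, beside 6.27% (higher) and 6.67% (lower) of all genes tested. Of 117 members with a mean of at least 1 CPM over all libraries, 3 were higher and 4 lower. Without the filter 8 were higher, and 9 with the replicate block and GC correction. The lower counts of the latter 2 fits are not given here. The cause of these shifts was not tested. Apart from the GC correction, shares of all genes tested under the settings of this paragraph are not given here. The shifts are therefore no result about the members. Replicate numbers did not pair the libraries (correlations of deviations -0.11 to 0.112); with the replicate block 21 and 13 members were called in knockout, 6 and 3 with ZIC2, 20 and 12 for ZIC2 against wild type, and 0 and 0 with ZNF263 overexpressed. Low counts limit what can be called at levels near 1 CPM.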
